A study of Mus musculus with 38 samples.

Results

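A set of 9 genes marking neural progenitors or the first steps of neuronal differentiation was followed in mouse neural cells with and without Trim28, a co-repressor recruited to DNA by zinc finger proteins. The 9 genes, out of 55298 in the deposited gene table, were given by name, a list drawn up with earlier results of these data known. They were Nes, Sox2, Pax6, Hes1, Hes5, Olig2, Fabp7, Dcx and Ina. Their levels were read in 32 bulk RNA libraries and in nuclei from 4 cortices.

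The neural progenitor cells (NPCs) were cultured from the forebrain of Rosa26-Cas9 knock-in embryos at embryonic day 13.5 and kept in EGF and bFGF, which hold such cells in a proliferating state. All of them expressed Cas9 and received a lentivirus with a guide RNA and the nuclear marker H2B-RFP, and they were sorted on RFP after 10 days. Guides g3, g4 and g13 cut exons 3, 4 and 13 of Trim28, and a guide against the bacterial lacZ gene served as the control. There were 2 libraries for each guide, and their labels carry numbers that fall into 2 series, each with 1 lacZ, 1 g3, 1 g4 and 1 g13 library. They are here called series A (npc_ctrl_842, npc_ko_g3_845, npc_ko_g4_848 and npc_ko_g13_851) and series B (npc_ctrl_867, npc_ko_g3_870, npc_ko_g4_873 and npc_ko_g13_876). What the numbers stand for is not given in the sources used here. Values for the lacZ libraries are given with series A first.

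The adult samples were of 4 kinds. Cortex came from 3-month-old mice in which Cre is driven from the Emx1 locus, active in the dorsal forebrain progenitors that give rise to excitatory neurons and to glia of the cortex. The KO mice were Emx1-Cre +/-; Trim28-fl +/+ (60, 73 and 76) and the control mice were Emx1-Cre +/-; Trim28-fl +/- (64, 65 and 77), so that the controls also carried Cre and 1 excised Trim28 allele. Nuclei were sorted from the forebrain of Trim28-floxed mice 2 months after AAV delivery of Cre under the neuronal Synapsin promoter, with 4 libraries labelled KO and 4 labelled control. The mice of this experiment were Trim28-flox +/+ or +/-, of which the paper calls the +/+ animals KO. In Cas9-GFP mice and in Stop-Cas9-GFP mice, in which a Cre under the Synapsin promoter switches Cas9 on in neurons, AAV guides were injected into the adult brain and nuclei were sorted 2 months later. These last 2 experiments had 4 KO libraries each (1 for each of g3, g4, g13 and the 3 guides together) and a single lacZ library. The 32 bulk libraries held between 8790346 and 25345083 gene counts each, and the NPC libraries between 9996885 and 19922767.

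As background, neural progenitors of the embryonic forebrain keep dividing while Sox2 and Pax6, transcription factors of the SRY-box and paired-box families, hold their identity. Notch signals from neighbouring cells switch on Hes1 and Hes5, helix-loop-helix repressors that block the proneural genes. Olig2 is a helix-loop-helix factor of ventral progenitors and of the oligodendrocyte lineage, Nes (nestin) is the progenitor intermediate filament, and Fabp7 is the fatty acid binding protein of radial glia. When a cell leaves this state it takes up Dcx (doublecortin), a microtubule-binding protein of migrating young neurons, and Ina (alpha-internexin), an intermediate filament protein of neurons. In the adult brain several of the progenitor genes remain in glia, and Sox2, Hes1 and Hes5 are also known in astrocytes.

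Promoter sequence was taken from RefSeq (build GRCm38.p6) for the member that differed between the NPC genotypes (Ina), the member that differed between the cortex genotypes (Fabp7) and the Notch target Hes5. Each line gives the 250 bases upstream of the start site, 5′ to 3′, with TGGGAA on either strand (TTCCCA on the other) in capitals, the core of the motif bound by Rbpj, the DNA-binding partner of Notch. The windows are chr4:154960673-154960922 (plus strand) for Hes5, chr10:57784673-57784922 (plus strand) for Fabp7 and chr19:47014431-47014680 (plus strand) for Ina.
Hes5: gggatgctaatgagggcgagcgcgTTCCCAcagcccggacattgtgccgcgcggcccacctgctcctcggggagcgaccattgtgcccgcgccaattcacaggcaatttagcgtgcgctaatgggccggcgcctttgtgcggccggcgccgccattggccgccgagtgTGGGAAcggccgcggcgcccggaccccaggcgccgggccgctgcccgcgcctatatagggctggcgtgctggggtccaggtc
Fabp7: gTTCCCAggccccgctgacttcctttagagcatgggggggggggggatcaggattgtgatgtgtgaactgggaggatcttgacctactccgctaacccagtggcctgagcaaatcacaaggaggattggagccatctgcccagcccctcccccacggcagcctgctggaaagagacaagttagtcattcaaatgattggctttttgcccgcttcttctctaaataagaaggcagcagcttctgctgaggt
Ina: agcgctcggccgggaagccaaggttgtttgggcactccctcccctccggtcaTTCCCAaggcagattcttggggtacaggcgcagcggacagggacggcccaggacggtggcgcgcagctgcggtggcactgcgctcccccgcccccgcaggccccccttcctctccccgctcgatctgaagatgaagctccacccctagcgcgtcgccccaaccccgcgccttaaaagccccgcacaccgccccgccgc

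Promoters of 8 of the 9 genes were matched in the RefSeq table; Hes1 is named only. These 8 genes had 10 promoters in the table. TGGGAA on either strand occurred in 3 of the 10, in Hes5 at positions -226 and -82 from the start, in Fabp7 at -249 and in Ina at -198, and in 21.6% of 32851 promoters of the same length. The helix-loop-helix motif CANNTG, on either strand, occurred in 4 of the 10 and in 66.2% of all promoters. GC content was 71.6% in the Hes5 window, 70.8% in that of Ina and 54.8% in that of Fabp7, against a median of 52.4% over all promoters. These matches describe letters in a window and not binding sites.

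Trim28 was checked first in the NPC libraries. Values are CPM, read counts scaled by library size, after TMM scaling within the experiment. Trim28 stood at 157 and 204 CPM in the lacZ libraries and at 36.8 to 73.6 CPM (median 47.8) in the 6 KO libraries, a log2 fold change of -1.82 (SE 0.253, edgeR quasi-likelihood test, adjusted p = 0.031). Every KO library lay below both lacZ libraries, and the log2 fold change stayed between -2.0 and -1.62 when each library was left out in turn, though the adjusted p then rose above the threshold in 6 of 8 fits (up to 0.414 without the series B lacZ library).

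Among the 9 genes, 1 was called different between the KO and lacZ NPCs, Ina, which fell. A gene was called at an adjusted p below 0.05 with a log2 fold change beyond 0.5. Of the 16469 genes tested, 0.194% were called (0.176% higher and 0.0182% lower in KO). That share, 32 genes, was not firm. It was larger with the number series as a block and moved with single libraries left out. Ina (ENSMUSG00000034336.3, chr19:47014698-47025327, plus strand, GRCm38.p6) stood at 5.37 and 3.98 CPM in the lacZ libraries. In the KO libraries it was 1.66, 1.37 and 1.61 CPM in series A (g3, g4 and g13) and 1.6, 1.73 and 1.54 CPM in series B. The 6 KO libraries sat within a narrow band well below both controls, on raw counts of 16 to 31 against 80 and 100.

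The Ina log2 fold change was -1.56 (SE 0.225, 95% interval -2.06 to -1.05, edgeR, adjusted p = 0.0344), with means of 1.58 ± 0.122 (SD, n = 6) and 4.68 ± 0.985 (SD, n = 2) CPM. An exact permutation test of 6 against 2 libraries, two-sided, gave p = 0.0357, the smallest this design allows. With the labels exchanged only within each series, which keeps the pairing, the exact permutation p was 0.0625, from 16 assignments and again the smallest possible. The call held in only 1 of the 8 fits that left out a library, that without the series A g3 library, with a log2 fold change between -1.76 and -1.33 throughout. Ina lies opposite Nt5c2 on the other strand, and the counting used strand. In bulk libraries, fewer cells that carry a transcript and less transcript per cell cannot be told apart.

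The progenitor transcription factors kept levels that overlapped between genotypes. Sox2 (ENSMUSG00000074637.7, chr3:34650405-34652461, plus strand, inside the longer non-coding gene Sox2ot on the same strand) stood at 562 and 424 CPM in lacZ and at 398 to 691 CPM (median 555) in KO, a log2 fold change of 0.15. Pax6 (ENSMUSG00000027168.21, chr2:105668900-105697364, plus strand) stood at 48.5 and 29.1 CPM in lacZ and at 25.6 to 53.5 CPM (median 35.3) in KO, a log2 fold change of -0.07. In both genes the series A libraries were the high ones in either genotype.

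Olig2 (ENSMUSG00000039830.9, chr16:91225457-91228677, plus strand) stood at 519 and 647 CPM in lacZ and at 286 to 574 CPM (median 488) in KO, a log2 fold change of -0.31 (95% interval -0.84 to 0.23). All 6 KO libraries were below the lacZ library of their own series, by 0.08 to 0.86 on the log2 scale, while the genotypes overlapped across series.

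The Notch targets did not pass the test either. Hes1 (ENSMUSG00000022528.8, chr16:30064384-30067796, plus strand) stood at 30.6 and 45.9 CPM in lacZ and at 36.5 to 56.0 CPM (median 48.8) in KO, a log2 fold change of 0.31 (95% interval -0.19 to 0.80). Hes5 (ENSMUSG00000048001.7, chr4:154960923-154962371, plus strand) stood at 21.9 and 7.56 CPM in lacZ and at 1.90 to 33.5 CPM (median 5.39) in KO, a log2 fold change of -0.59 (95% interval -2.75 to 1.57). Hes5 was the most scattered of the 9 genes. Its highest value, 33.5 CPM, was in a KO library (g3, series A), and 5 of 6 KO libraries were below the lacZ library of their series.

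Nes (ENSMUSG00000004891.16, chr3:87971078-87980451, plus strand) stood at 529 and 1470 CPM in lacZ and at 259 to 1587 CPM (median 928) in KO, a log2 fold change of -0.08. Fabp7 (ENSMUSG00000019874.11, chr10:57784881-57788450, plus strand) was the most abundant of the 9 genes in NPCs. It stood at 3428 and 3154 CPM in lacZ and at 1725 to 2998 CPM (median 2506) in KO, with no overlap between the groups. The log2 fold change was -0.41 (SE 0.202, 95% interval -0.87 to 0.04, edgeR p = 0.0708, adjusted p = 1.0), and the exact permutation p was 0.143 over all libraries and 0.125 within series. Of the 9 genes, 2 (Fabp7 and Ina) had groups that did not overlap, and in both the KO libraries were lower; 6.85% of all genes tested did not overlap, 3.83% with KO higher and 3.02% with KO lower.

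Dcx (ENSMUSG00000031285.14, chrX:143855842-143933311, minus strand), the other neuronal gene, stood at 25.1 and 8.81 CPM in lacZ and at 2.93 to 24.6 CPM (median 8.99) in KO. Its log2 fold change was -0.51 (95% interval -2.26 to 1.24). All 6 KO libraries lay below the lacZ library of their own series, by 0.03 to 1.44 on the log2 scale, but the difference between series was larger than that between genotypes. The plot of the 9 genes by guide and series shows these values.

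**Figure D1:**
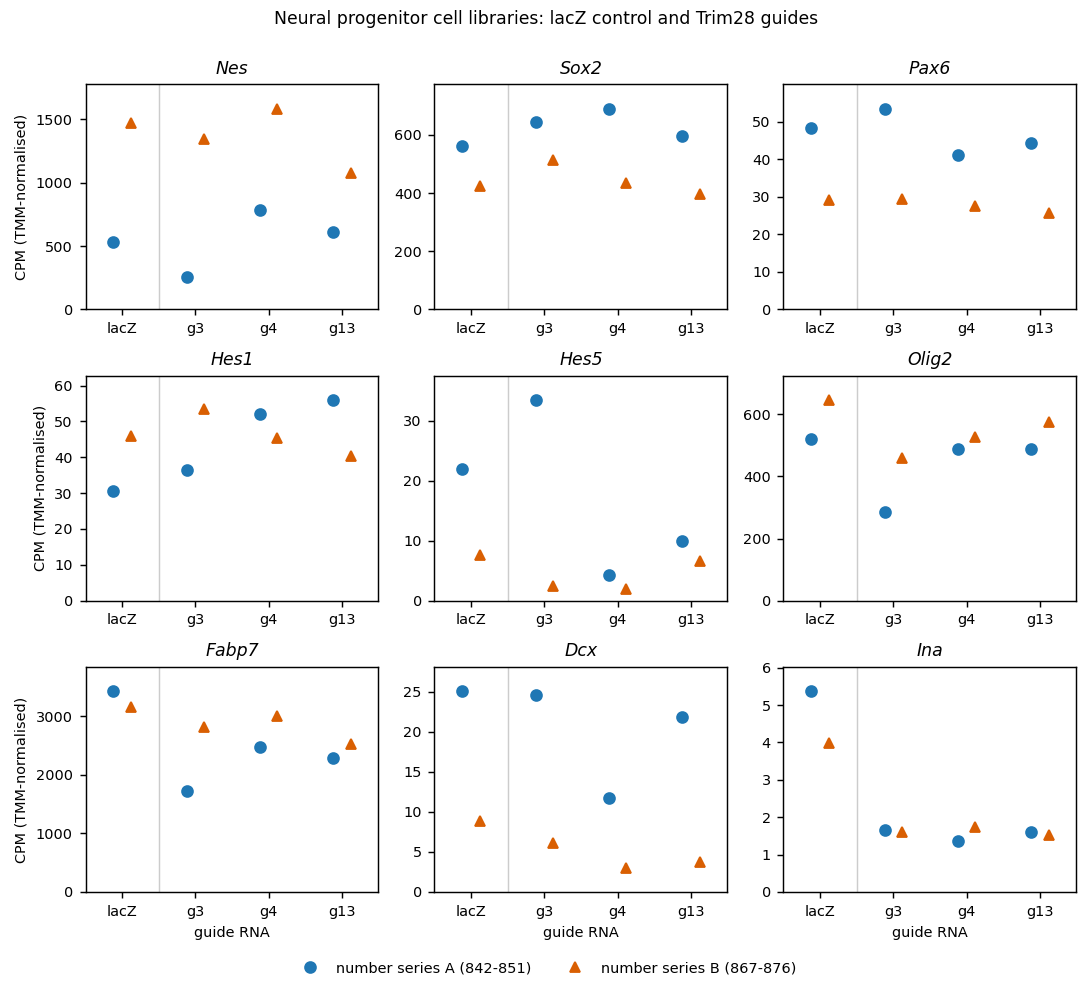
CPM (TMM-scaled, linear axis from 0) of each of the 9 genes in the 8 NPC libraries, by guide on the horizontal axis, with 1 point per library, circles for series A and triangles for series B. Ina was 3.98 and 5.37 CPM in lacZ and at most 1.73 CPM under every Trim28 guide, while Nes, Sox2, Pax6 and Dcx separated by series.

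The lists the 9 genes belong to gave a like picture. All lists of the KO comparison in NPCs were read in the fit without the number series, and not with the series as a block. None of 25 progenitor and radial glia genes was called in the KO NPCs, 3 had an unadjusted p under 0.05 (Olig1, Sox9 and Sox3, with negative log2 fold changes), and the median log2 fold change of the list was -0.08 against 0.01 over all genes tested, of which 752 of 16469 had an unadjusted p under 0.05. None of 18 tested Notch pathway genes was called; those with the smallest p were the ligand Dll3 (-0.90, edgeR, adjusted p = 1.0) and Nrarp, a feedback inhibitor of Notch (-0.77, adjusted p = 1.0). Of 26 neuronal onset genes, 15 could be tested and Ina was the only one called; 5 had an unadjusted p under 0.05 and the median was -0.30. Snap25, a synaptic vesicle fusion protein, had a log2 fold change of -1.46 (edgeR, adjusted p = 0.322) and Gad1, which makes GABA, of -1.19, which did not pass the test either. Both were chosen after their values were seen, and 7 of the 15 had a positive log2 fold change.

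Among 9 intermediate filament genes, of which 6 were tested, Ina was again the only call. The 15 proliferation genes gave no call and a median of -0.23, and the 8 astrocyte genes gave no call. Of 11 oligodendrocyte lineage genes, which mark another fate these cells can take, 9 were tested and none was called, 4 had an unadjusted p under 0.05 and the median was -0.71. The smallest p were those of Gpr17, a receptor of newly committed oligodendrocytes (-3.29, edgeR, adjusted p = 0.211), and Pdgfra, the growth factor receptor of oligodendrocyte progenitors (-2.18, adjusted p = 0.598). The oligodendrocyte lineage genes summed to 686 and 507 CPM in lacZ (series A and B) and to 299 to 523 CPM in KO, with Olig1 the most abundant and at most 2 genes at 0. Whether these cells had a part in the Ina difference was not tested.

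Taken guide by guide, 2 libraries against 2, Ina fell short of the threshold each time but took nearly the same value: a log2 fold change of -1.52 for g3, -1.59 for g4 and -1.57 for g13 (edgeR, adjusted p = 0.582, 0.698 and 0.917, with unadjusted p = 0.00322, 0.00263 and 0.00299). None of the 9 genes was called for any guide; the share of all genes called was 0.0182% for g3 and 0% for g4 and g13, where 599, 480 and 469 genes had an unadjusted p under 0.05. These counts were not firm, since without the filter on low counts 154, 125 and 105 genes were called. A test of the difference among the 3 guides gave Ina an adjusted p of 1.0 (edgeR) and called 0% of genes, with 102 at an unadjusted p under 0.05. All comparisons with lacZ use the same 2 lacZ libraries.

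More of the 9 genes differed between the number series than between the genotypes. With genotype in the model, 4 of the 9 genes were called between series B and series A, against 22.6% of all genes tested (3714 genes; 1655 without the series B lacZ library, 1673 without that of series A, 1855 without the series B g4 library and 4561 without that of series A). Nes was higher in series B, with a log2 fold change of 1.33 (SE 0.293, edgeR, adjusted p = 0.0123). Pax6 was lower (-0.75, SE 0.117, adjusted p = 0.00366), as were Hes5 (-2.02, SE 0.614, adjusted p = 0.0374) and Dcx (-1.99, SE 0.301, adjusted p = 0.00335). Over the 8 fits that each dropped 1 library, Pax6 and Dcx were called in all, Nes in 6 (not without either lacZ library, adjusted p = 0.0569 and 0.0573) and Hes5 in 2, those without the g3 or g4 library of series A.

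Each guide gives 1 pair of libraries across the series. The 4 pairs share the same 2 series and their differences correlated (r = 0.532 to 0.706), so they are not independent readings. The p-values between series likewise measure only the spread between libraries. Nes was higher in series B in 4 of 4 pairs, by 0.82 to 2.37 on the log2 scale. Pax6 (-0.86 to -0.58), Hes5 (-3.55 to -0.56) and Dcx (-2.40 to -1.46) were lower in 4 of 4. Nes and Dcx, the progenitor filament and the young-neuron protein, thus moved in opposite directions between series in every pair.

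Sox2 was also lower in series B in all 4 pairs (-0.67 to -0.32), with an adjusted p of 0.0153 (edgeR) and a log2 fold change of -0.49 that missed the size limit. Sox2 was called without the series B g3 library (-0.56, edgeR, adjusted p = 0.0209) or the series A g13 library (-0.52, edgeR, adjusted p = 0.0341). Olig2 (0.31, adjusted p = 0.203), Fabp7 (0.24, adjusted p = 0.25), Hes1 (0.11) and Ina (-0.08) were not called. Ina, the member called between genotypes, was thus not among those called between series. An interaction test of the KO effect between series, with 1 lacZ library in each, called 0 of all genes and none of the 9 (edgeR, adjusted p = 1 for each), and so does not show that the effects were alike. The KO log2 fold change of Fabp7 was -0.67 in series A and -0.18 in series B, and that of Hes1 0.65 and 0.02.

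The wider lists were read beside the shares of all genes called, 11.5% higher and 11.1% lower in series B. All 15 proliferation genes had positive log2 fold changes (median 0.97), and 7 were called higher in series B: Mcm3, Mcm4, Mcm5, Mcm6 and Mcm7, subunits of the replicative helicase, Pcna, the clamp of the DNA polymerase, and Ccnd1, the cyclin of the first gap phase. Mcm4 had a log2 fold change of 1.56 (edgeR, adjusted p = 0.00653). The summed level of the list was 2570 CPM in the series A lacZ library and 5889 CPM in that of series B, and ran from 1077 (g3, series A) to 6076 CPM (g4, series B) in KO.

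Of 18 Notch pathway genes, 5 were called lower in series B: the receptors Notch1 and Notch2, the ligands Jag1 and Dll1, and Hes5. Dll1 had a log2 fold change of -1.6 (edgeR, adjusted p = 0.0143). One, Lfng, a glycosyltransferase that modifies Notch, was called higher (0.77, adjusted p = 0.0273). Of 15 neuronal onset genes, Dcx, Gad1 and the neuronal tubulin Tubb3 (-1.25, adjusted p = 0.0276) were called lower and Cd24a higher, 4 genes in all, near the share over all genes.

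In the progenitor list, of 25, Nes, Vim and Id3 were called higher in series B and Pax6, Hes5, Sox1 and Ptprz1 lower, also near the shares over all genes. Of 8 astrocyte genes, 4 were called lower in series B (Slc1a2, Slc4a4, S100b and Aqp4). The astrocyte genes summed to 1101 CPM in the series A lacZ library and 713 CPM in that of series B, with no gene at 0. The g3 library of series A had the lowest Nes (259 CPM) and Fabp7 (1725 CPM) and the highest Hes5 (33.5 CPM) of the 8, beside the lowest summed proliferation and the highest summed astrocyte level (1658 CPM). Whether the cells of series A and B were at different stages was not tested.

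**Figure D2:**
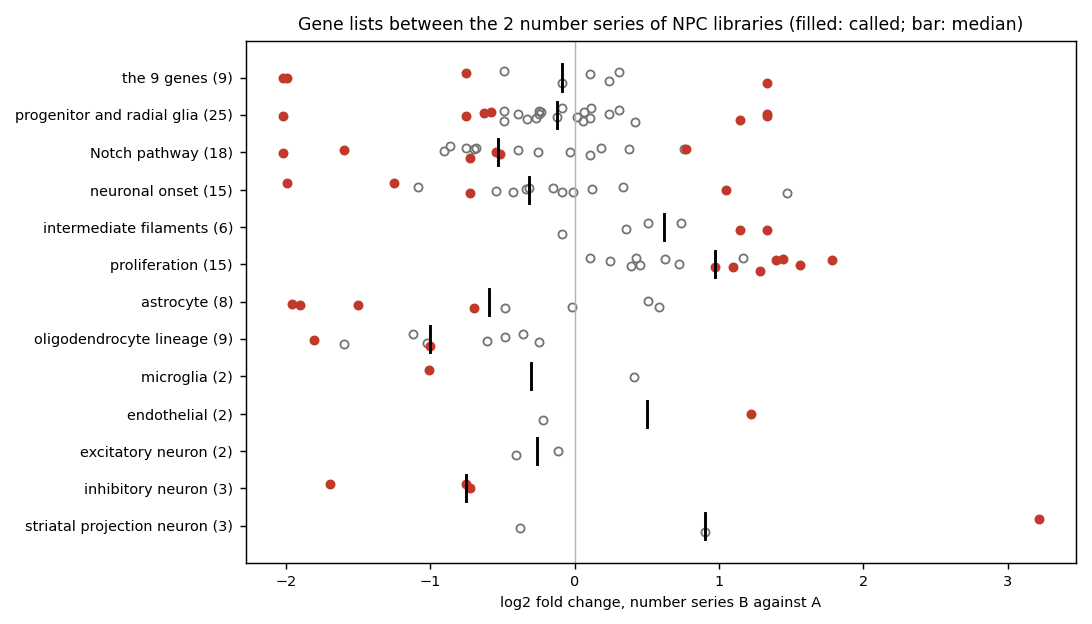
Log2 fold change between series B and series A (edgeR, genotype in the model) of the genes in each list, 1 point per tested gene, filled where called, with a bar at the median of the list. The proliferation genes all lie above 0 (median 0.97), and the 9 genes lie on both sides of 0, from -2.02 (Hes5) to 1.33 (Nes).

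Levels across the bulk experiments are given as CPM per kilobase of exon, so that genes can be set beside each other. They rest on TMM factors over all 32 libraries, and scaling by total counts alone moved many of them by more than the SD, in cortex KO to 36.2 for Fabp7 and 38.8 for Ina (51.2 and 54.1 with the factors). In NPC lacZ, Fabp7 stood at 2949 ± 127 (SD, n = 2), Sox2 at 268 ± 49, Olig2 at 258 ± 44, Nes at 175 ± 119, Hes1 at 21.1, Hes5 at 12 ± 8.1, Pax6 at 3.70, Ina at 1.62 ± 0.32 and Dcx at 1.49. The order set Fabp7 apart from the rest and placed the neuronal genes last. In the cortex of the control mice the first place was held by Ina, at 62.7 ± 1.7 (SD, n = 3), followed by Sox2 at 28.9 and Fabp7 at 26.4 ± 2.0.

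For Ina, the levels fell from Emx1-Cre cortex control (62.7 ± 1.7) and KO (54.1 ± 7.8) to the adult neuronal nuclei, where the groups lay between 10.3 (flox, labelled KO) and 23.6 (Cas9-GFP lacZ, 1 library), and then to NPC lacZ (1.62 ± 0.32) and NPC KO (0.529 ± 0.051). For Dcx the order was another: it was highest in Stop-Cas9-GFP KO nuclei (5.36 ± 0.65), stood at 3.82 in cortex control, and was lowest in NPC KO (1.02). The other 7 genes had their highest mean in an NPC group. Fabp7 fell from 2949 in NPC lacZ and 2144 ± 418 in NPC KO to 51.2 ± 10.2 in cortex KO, 26.4 ± 2.0 in cortex control and 0.771 in flox nuclei labelled control. The nuclei differ from the cortex in region and compartment too, and the paper gives intra-striatal injections for Cas9 knock-in mice. Striatal projection neuron genes summed to a mean of 3301 CPM in flox nuclei labelled control and 45.7 CPM in cortex control. In the Cas9-GFP lacZ library they summed to 2568 CPM.

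**Figure D3:**
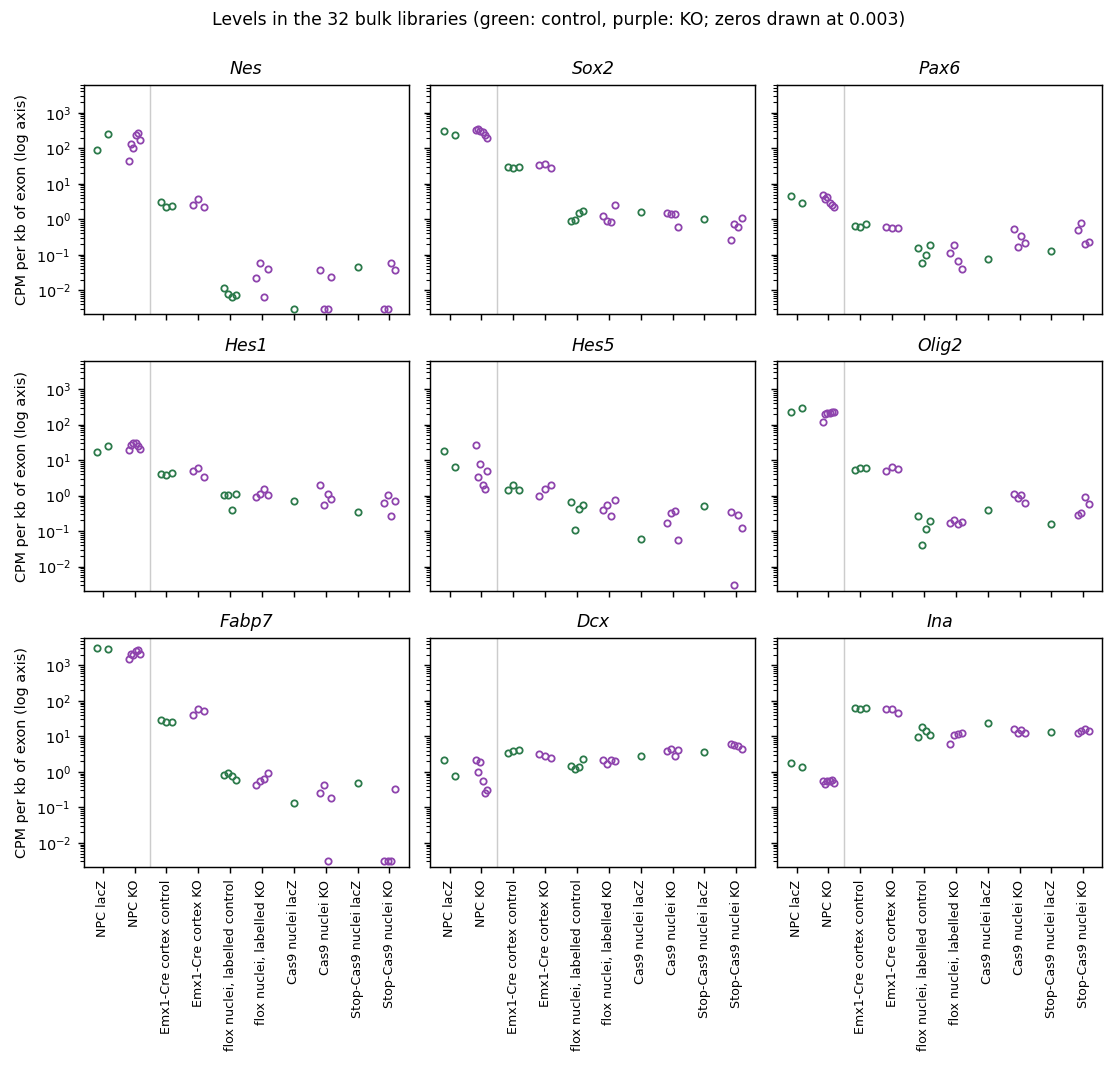
CPM per kilobase of exon (log axis) of each of the 9 genes in the 32 bulk libraries, 1 point per library, by group on the horizontal axis, green for control and purple for KO, with zeros drawn at 0.003. An NPC group has the highest mean for every gene but Dcx and Ina, and Ina is highest in cortex, at 62.7 in the control mice.

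With all 32 libraries in one fit, the lacZ NPCs differed from the control cortex in all 9 genes, where 51.6% of 24697 genes were called. The log2 fold change was 6.80 for Fabp7, 6.10 for Nes, 5.49 for Olig2, 3.21 for Sox2, 2.89 for Hes5, 2.44 for Pax6 and 2.36 for Hes1, all higher in NPCs. Ina (-5.28) and Dcx (-1.36, edgeR, adjusted p = 0.034) were lower in NPCs. The Hes5 call was lost without the series A lacZ library (1.96, adjusted p = 0.0863) and the Dcx call without that of series B (-0.98, adjusted p = 0.242). Cultured cells and tissue were prepared separately, and their effect cannot be told apart from that of the cell type.

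Against the flox nuclei labelled control, 8 genes were called, 7 higher in NPCs and Ina lower (-3.06), with 63.2% of genes called. Dcx was not called (-0.12). Whole cultured cells were set here against sorted nuclei, so compartment and brain region cannot be told apart from cell type. Nes had 1 to 2 counts in each of those flox libraries and was tested only because it is high in NPCs, so its call was fixed by the filter. All 15 proliferation genes were higher in the NPCs in both comparisons. Only 12 of them passed the filter within the cortex libraries and 9 within the flox libraries. The rest were too low there to pass, so their direction was fixed by the filter. Of 24 neuronal onset genes, 19 were lower and 1 higher than in cortex, and 16 were lower and 5 higher than in the flox nuclei. Only 15 of this list passed the filter within the NPC libraries. The rest were too low in NPCs to pass, so a lower value there was fixed by the filter.

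Likeness of pattern was measured as Pearson's r of log2 CPM over the 32 libraries, a description in which the contrast of NPCs with adult tissue carries most of the spread. Ina was most like Snap25 (r = 0.987) and Dcx most like Crebrf (r = 0.943), Nes most like Gypc (0.991), Fabp7 most like Eef1g (0.993), Sox2 most like Rps24 (0.995), Olig2 most like Msn (0.989), Hes1 most like Cd93 (0.976), Pax6 most like Gm16984 (0.957) and Hes5 most like Ip6k3 (0.925). The 7 progenitor genes ran together (r = 0.774 to 0.983). Dcx and Ina had r = 0.70 with each other and negative values with the other 7 (-0.678 to -0.378).

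Among the cortex libraries KO 76 stood apart from the other KO animals, with a chi-square per gene of 362.5 and 373.3 against KO 60 and KO 73, which differed by 12.26. In the adult cortex Fabp7 rose in the KO. It stood at 37.3, 56.1 and 51.5 CPM in the KO mice (60, 73 and 76) and at 25.3, 22.9 and 23.2 CPM in the control mice (64, 65 and 77). Every KO cortex was above every control. The log2 fold change was 1.02 (SE 0.137, 95% interval 0.72 to 1.32, edgeR, adjusted p = 0.0019). Trim28 itself stood at 6.08, 8.53 and 8.88 CPM in KO and at 20.9, 19.0 and 21.4 CPM in the control mice, which gave a log2 fold change of -1.39 (adjusted p = 0.000378).

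Fabp7 was the only one of the 9 genes called in the cortex, where 1.33% of 16271 genes were (0.86% higher and 0.467% lower in KO). It was also the only one of 24 tested progenitor and radial glia genes. None of the tested neuronal onset genes was called; the smallest p were those of the surface protein Cd24a (0.77, edgeR, adjusted p = 0.0802) and the growth cone protein Gap43 (0.41, adjusted p = 0.161). The call was kept in every fit that left out an animal and under the other scaling, filter, count table and tool that were tried, at 0.97 without KO 76 (edgeR, adjusted p = 0.00026). The 216 genes called in all ranged from 104 (without control 77) to 344 (without KO 76), and were 111 and 133 without control 64 or 65.

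Of the 9 genes, 4 had groups that did not overlap (Fabp7, Sox2, Pax6 and Ina), 2 with KO higher and 2 with KO lower, against 13.9% of all genes (6.81% higher and 7.1% lower), and with 3 animals against 3 an exact permutation test cannot go below 0.1. Sox2 stood at 51.0, 54.0 and 46.0 CPM in KO and at 43.0, 42.1 and 43.6 CPM in control, a log2 fold change of 0.23 (edgeR, adjusted p = 0.406). Ina stood at 141, 140 and 115 CPM in KO and at 144, 147 and 148 CPM in control, a log2 fold change of -0.15 (edgeR, adjusted p = 0.789). Pax6 was at 4.86 to 5.40 CPM in KO and 5.44 to 6.27 CPM in control (-0.15). None of these 3 genes passed the test, and in Ina and Pax6 the gap between the groups was small beside the spread within them.

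Dcx stood at 29.9, 26.9 and 23.9 CPM in KO and at 29.7, 37.6 and 37.4 CPM in control, a log2 fold change of -0.37 (edgeR, adjusted p = 0.259), with KO animal 60 just above control animal 64. Nes (0.21), Hes1 (0.29), Hes5 (-0.06) and Olig2 (0.04) overlapped between the genotypes. Other cell types' lists were read beside the Fabp7 result. The 8 astrocyte genes gave no call and summed to 5026 to 5617 CPM in KO and 4940 to 5585 CPM in control, with Slc1a2 the most abundant and no gene at 0.

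Of 11 oligodendrocyte lineage genes none was called, 4 had an unadjusted p under 0.05 and the median log2 fold change was -0.23; they summed to 2279 to 2504 CPM in KO and 2830 to 3039 CPM in control. All 5 fibroblast genes had an unadjusted p under 0.05 (median -0.93), and Col1a2, a collagen chain, was called lower. The part of these cells in the result was not tested.

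**Figure D4:**
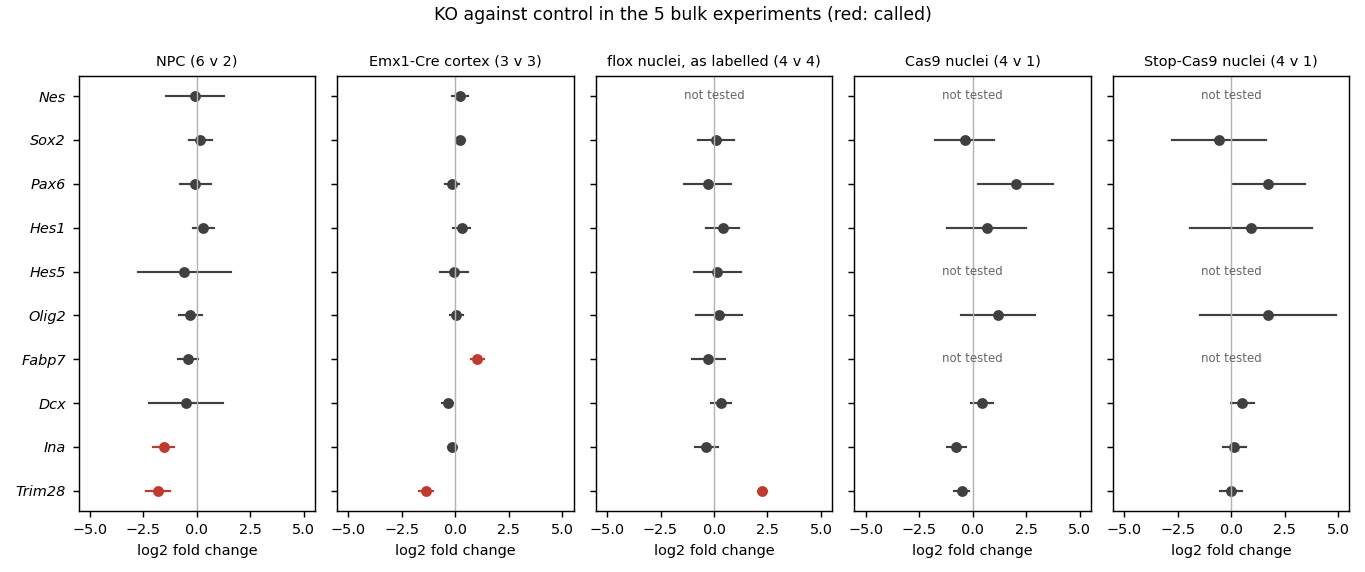
Log2 fold change with its 95% interval (edgeR) of the 9 genes and Trim28 between KO and control in the 5 bulk experiments, 1 panel each, red where called and marked as not tested where the gene did not pass the filter on low counts. Ina in NPCs (-1.56) and Fabp7 in cortex (1.02) are the members called, and Trim28 is higher in the flox nuclei labelled KO (2.26).

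In the adult neuronal nuclei none of the members was called. The flox libraries go against their labels at Trim28: it stood at 131, 146, 136 and 131 CPM in the libraries labelled KO and at 28.1, 25.6, 31.6 and 28.1 CPM in those labelled control, a log2 fold change of 2.26 (edgeR, adjusted p = 2.74e-06). Directions in this experiment are therefore given by label. Nes did not pass the filter on low counts, and of the 8 members tested none was called, where 0.0409% of 17102 genes were (0.0117% higher and 0.0292% lower by label).

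Ina stood at 22.7, 40.5, 43.4 and 46.8 CPM in the libraries labelled KO and at 35.2, 70.3, 50.6 and 42.4 CPM in those labelled control (-0.37, edgeR, adjusted p = 0.971). Dcx stood at 32.2, 24.4, 31.2 and 29.5 CPM in the libraries labelled KO and at 21.0, 17.8, 20.0 and 35.1 CPM in those labelled control (0.32). Hes1 had a log2 fold change of 0.40 by label, with 0.867 CPM in 1 library labelled control and 2.17 to 3.65 CPM in the other 7. The groups overlapped in all 3 genes, where 3.37% of all genes had groups that did not.

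In the Cas9-GFP nuclei, 6 of the 9 genes passed the filter and 0 were called, as for all 19004 genes (0%, with 1560 at an unadjusted p under 0.05; 131 were called without the filter on low counts, 25 with DESeq2 and up to 7 with a KO library left out). Ina stood at 60.4 (g13), 46.6 (g3), 59.3 (g3, g4 and g13 together) and 47.2 CPM (g4) in KO against 89.9 CPM in the lacZ library, a log2 fold change of -0.75 (SE 0.198, edgeR, adjusted p = 0.328). Pax6 stood at 7.50, 2.34, 4.79 and 2.92 CPM against 1.08 CPM, the latter from 11 counts (2.01). Dcx had 42.3 to 63.9 CPM against 40.8 CPM (0.46). Sox2 had 1.51 to 3.56 CPM against 3.83 CPM and Olig2 1.86 to 3.29 CPM against 1.18 CPM. In each of these genes the 4 KO libraries lay on one side of the lacZ library, as did 45.2% of all genes. Hes1, the other member tested, overlapped. With 1 lacZ library the exact permutation test cannot go below 0.2.

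In the Stop-Cas9-GFP nuclei, 6 members were tested and 0 called, as for all 18777 genes (0%, with 459 at an unadjusted p under 0.05; 18 were called without the filter and 1 with DESeq2). Ina stood at 47.7, 52.0, 60.9 and 53.1 CPM against 48.2 CPM (0.15); the difference between the 2 experiments was not tested. Pax6 stood at 6.76, 10.3, 2.79 and 3.03 CPM against 1.69 CPM (1.75) and Dcx at 85.7, 82.5, 78.4 and 64.4 CPM against 54.1 CPM (0.52). Olig2 had 0.845 to 2.61 CPM against 0.452 CPM, the latter from 4 counts. The groups did not overlap in Pax6, Dcx and Olig2, as in 33.5% of all genes, and overlapped in Ina, Sox2 and Hes1. Trim28 RNA stood at 93.8 to 105 CPM against 143 CPM in Cas9-GFP and at 88.5 to 127 CPM against 105 CPM in Stop-Cas9-GFP, and was called in neither. A guide-made frameshift need not lower the RNA, so this does not check the labels.

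The KO effects were then set against each other in the joint fit. The Ina effect in NPCs minus that in Emx1-Cre cortex was -1.39 on the log2 scale (edgeR, adjusted p = 0.114), and the Fabp7 effect, negative in NPCs and positive in cortex, differed by -1.41 (adjusted p = 0.236). Neither difference was called, nor that of any other member, where 0.109% of genes were (0.0567% with the more positive effect in NPCs, 0.0526% with the more negative). The 27 genes called ranged from 5 (without the series B lacZ library) to 74 (without the series A g3 library). Against the flox nuclei none of the 8 members with usable counts was called (Nes did not pass the filter there), with 0.215% of genes called (0.101% with the more positive effect in NPCs, 0.113% with the more negative), 53 genes that ranged from 31 to 146 without the same 2 libraries. These flox differences take the labels as given, which Trim28 goes against, and no size or direction is read from them.

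Single nuclei from 4 of the cortices (KO 60 and 73, control 64 and 65) were read for the classes of nuclei in which these genes were counted. Free RNA in droplets gives some UMIs to every class, so low values are no sign of expression. Of 14296 barcodes 13671 nuclei were kept, with a median of 8088 to 8840 UMIs per nucleus and animal, and at most 20 barcodes were shared by 2 libraries. Clusters were named by fixed markers as excitatory neuron-like (8177 nuclei), inhibitory neuron-like (1729), oligodendrocyte-like (1308), astrocyte-like (1185), microglia-like (691), oligodendrocyte progenitor-like (453) and fibroblast-like (128). Values below are CPM of the summed UMIs of a class in each animal, as mean ± SD over the 4 animals.

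Among the named classes, the progenitor genes other than Nes were highest in glial nuclei of the adult. Pax6 was highest in astrocyte-like nuclei (144.5 ± 56), as were Hes1 (140.5 ± 38) and Hes5 (126.4 ± 75). Hes1 was also at 126 ± 61 in fibroblast-like nuclei and Hes5 at 117 ± 44 in oligodendrocyte progenitor-like nuclei, gaps smaller than the spread between animals.

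Sox2 was at 137.2 ± 22 in oligodendrocyte-like, 135.8 in astrocyte-like and 96.0 in oligodendrocyte progenitor-like nuclei, while among neurons it was at 30.3 ± 6.6 in inhibitory and at 0.816 in excitatory neuron-like nuclei. Olig2 was highest in oligodendrocyte progenitor-like nuclei (185.2 ± 40), followed by oligodendrocyte-like nuclei (46.7). Fabp7 was low and glial too, at 33.3 ± 19 in oligodendrocyte progenitor-like, 23.9 ± 8.2 in astrocyte-like and 0.487 in excitatory neuron-like nuclei.

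The onset genes were neuronal. Dcx was at 92.2 ± 29 in excitatory and 91.2 ± 17 in inhibitory neuron-like nuclei, and at 53.8 in oligodendrocyte progenitor-like nuclei. Ina was at 56.2 ± 9.6 in inhibitory and 47.9 ± 7.8 in excitatory neuron-like nuclei. Nes had 28 UMIs in all nuclei together, 13 of them in excitatory and 10 in inhibitory neuron-like nuclei and 1 in astrocyte-like nuclei. With finer clusters (resolution 0.3), 6 of those 10 UMIs came from 46 nuclei that formed an unnamed cluster, at 65.8 ± 62 CPM of Nes. Its leading genes included Vtn, Ebf1, Abcc9 and Pdgfrb. Hes1 was at 146 CPM in this cluster, on 16 UMIs, against 140.5 in astrocyte-like nuclei. The inhibitory neuron-like nuclei were left with 4 UMIs of Nes (0.26 CPM, against 0.136 in excitatory neuron-like nuclei), so Nes is not placed in neurons here.

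**Figure D5:**
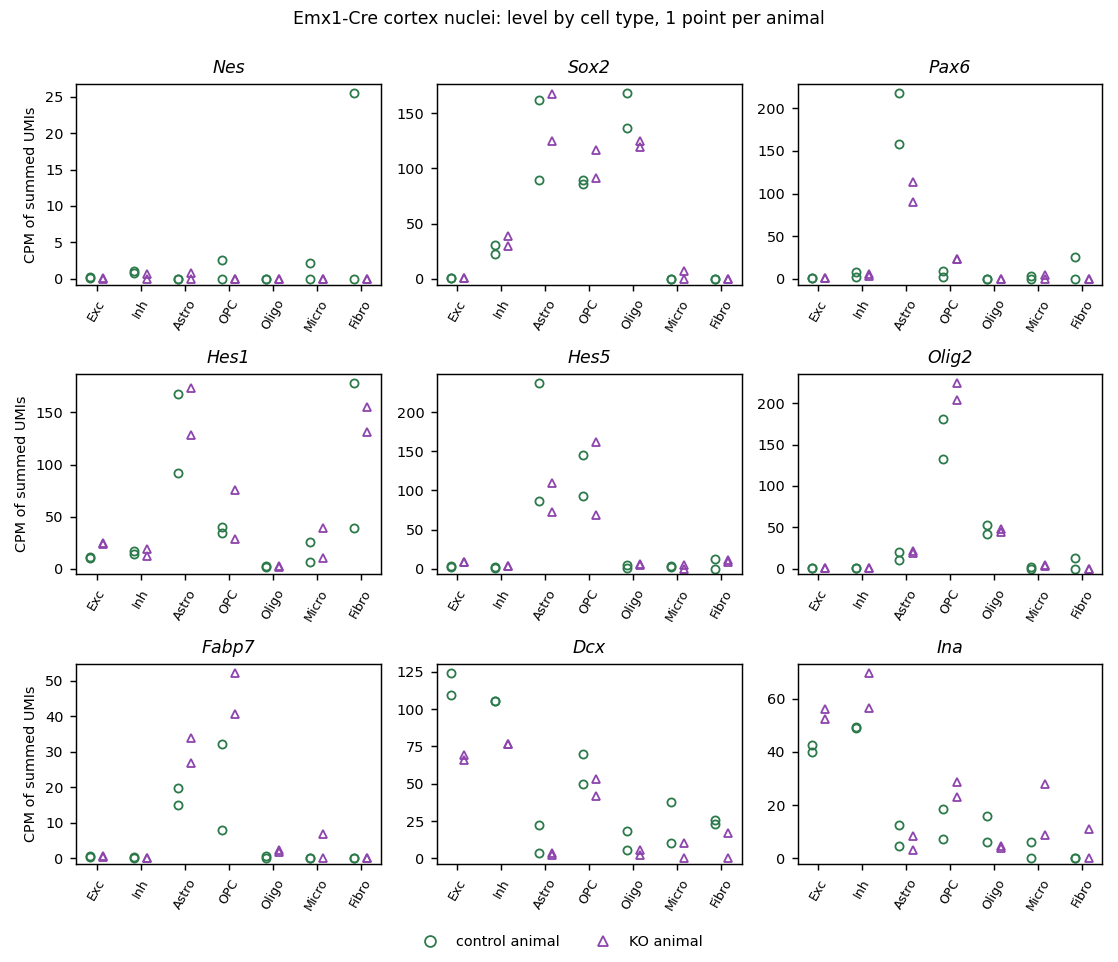
CPM of summed UMIs in each named class of Emx1-Cre cortex nuclei, 1 point per animal, circles for control and triangles for KO, linear axis from 0. Pax6, Hes1 and Hes5 peak in astrocyte-like nuclei, Olig2 in oligodendrocyte progenitor-like nuclei (185.2), and Dcx and Ina in neuron-like nuclei.

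UMIs were summed per animal and class and tested between 2 KO and 2 control animals, a test added after the data were seen; control values are given for animals 64 and 65 and KO values for 60 and 73, in that order. In excitatory neuron-like nuclei, where Emx1-Cre acts, 8 of the 9 genes were tested and 3 called, against 6.32% of 16254 genes (3.49% higher and 2.83% lower). Hes1 rose, from 10.3 and 11.3 CPM in control to 24.5 and 23.5 in KO, a log2 fold change of 1.10 (SE 0.131, edgeR, adjusted p = 0.0126). Hes5 rose from 2.70 and 2.54 to 8.50 and 8.61, a log2 fold change of 1.66 (SE 0.181, adjusted p = 0.0116). Dcx fell from 109 and 124 to 69.1 and 66.2, a log2 fold change of -0.84 (SE 0.111, adjusted p = 0.0154). In all 3 genes the 2 genotypes stood far apart beside the spread between animals.

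These 3 calls rest on few animals: none of them held without control 64 or control 65, though every value kept its direction, and the 1028 genes called in all fell to 0 there too, to 474 without KO 60 and to 297 without KO 73. Dcx was also lost without KO 73 (-0.80, adjusted p = 0.0537), and no gene was called when genes of low count were kept in. Trim28 in these nuclei was at 8.56 and 7.0 in control and 6.36 and 6.72 in KO; the 3' tags may lie outside the floxed exons, so this checks nothing. Ina, at 40.1 and 42.5 in control and 56.3 and 52.5 in KO, had a log2 fold change of 0.35 (adjusted p = 0.0914).

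The Hes1, Hes5 and Dcx values were read in the 2 largest excitatory clusters too. In the cluster led by Rorb (3649 nuclei), Dcx was at 127 and 147 in control and 85.2 and 92.6 in KO. Hes1 was at 11.1 and 12.4 in control and 25.2 and 22.1 in KO, and Hes5 at 2.68 and 2.46 against 8.33 and 8.11. In the cluster led by Otof and Ccbe1 (3071 nuclei), Dcx was at 95.6 and 105 in control and 51.0 and 44.5 in KO, and Hes5 at 3.90 and 3.65 against 11.4 and 11.0. Hes1 was at 7.52 and 6.55 in control and 16.9 and 20.1 in KO in this second cluster. The direction of each gene was thus the same within both clusters. They hold most of the excitatory neuron-like nuclei and come from the same 4 animals, so this is no independent support. The smaller excitatory clusters are not given here. The second held 531 and 570 nuclei of the control animals and 891 and 1079 of the KO animals.

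Hes1 and Hes5 are far higher in astrocyte-like nuclei, so astrocyte markers were read in the excitatory neuron-like nuclei. The 6 markers summed to 589 and 682 CPM in control and 552 and 555 in KO, against 8784 and 9537 in control and 9206 and 9487 in KO in the astrocyte-like nuclei, with Slc1a2 the most abundant (429 and 496 against 437 and 441 in the excitatory nuclei) and none at 0. In oligodendrocyte-like nuclei Hes5 reached 5.77 CPM in 1 of the 4 animals, in microglia-like nuclei 4.34 and in inhibitory neuron-like nuclei 2.91. In fibroblast-like nuclei it reached 12.7, on 3 UMIs, as few as in microglia-like nuclei. The control values of excitatory nuclei lay within the range of these classes, and the KO values above all of them but the fibroblast-like nuclei. Hes1 reached 2.70 in oligodendrocyte-like nuclei and ran from 6.31 to 39.0 in microglia-like nuclei, on few UMIs. In inhibitory neuron-like nuclei Hes1 was at 15.5 ± 2.7. The part of free RNA in the Hes1 and Hes5 values was not tested. Of the 7 tested genes of the astrocyte list, S100b was called higher and Slc4a4 lower. Pax6 and Fabp7, which were also highest in glial classes, were not called there.

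Of 16 tested neuronal onset genes, Insm1, Neurod6 and Gap43 were called higher in the excitatory nuclei of the KO and Dcx and Syt1 lower. Of 5 intermediate filament genes, the neurofilaments Nefl (0.96, edgeR, adjusted p = 0.0137) and Nefm (0.83, adjusted p = 0.027) were called higher. Hes1 and Hes5 were the only calls among 17 Notch pathway genes, which left their receptors and ligands uncalled.

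In inhibitory neuron-like nuclei, which come from progenitors outside the Emx1 domain, none of the members and none of 12767 genes was called (0%, with 1830 at an unadjusted p under 0.05). That 0 was not firm, since 13 (without KO 60), 34 (without KO 73), 351 (without control 65) or 1819 genes (without control 64) were called with 1 animal left out. Dcx was at 105.6 and 105.5 in control and 76.8 and 76.8 in KO (-0.47, edgeR, adjusted p = 0.191), the same direction as in the excitatory nuclei. With each animal left out its log2 fold change stayed between -0.48 and -0.46, short of the size limit of 0.5 in every fit. Ina was at 49.2 and 49.4 against 56.5 and 69.7 (0.35, adjusted p = 0.338). The difference between the 2 neuron classes was not tested.

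In astrocyte-like nuclei, 1 of 7 tested members was called, Pax6, against 2.09% of 10297 genes (0.923% higher and 1.17% lower). It was at 217.5 and 157.8 in control and 89.7 and 113.1 in KO (-0.91, SE 0.201, edgeR, adjusted p = 0.0386). The Pax6 call was lost without KO 60 (-0.75, adjusted p = 0.373) or KO 73 (-1.08, adjusted p = 0.17) and with DESeq2 (adjusted p = 0.0981). The 215 genes called in all became 88 without KO 60, 65 without KO 73, 944 without control 64 and 452 without control 65. Hes5 was at 237 and 87.0 against 72.6 and 108.9 (-0.90, adjusted p = 0.271), and here 1 control animal was far above the other 3. Fabp7, the gene that rose in the bulk cortex, was at 19.8 and 14.9 in control and 26.9 and 33.8 in KO (0.76, adjusted p = 0.283).

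Fabp7 in oligodendrocyte progenitor-like nuclei was at 32.2 and 7.92 in control and 52.2 and 40.7 in KO (1.05, edgeR, adjusted p = 0.545). Fabp7 passed the test in neither glial class with all 4 animals, but its oligodendrocyte progenitor value moved from 0.46 (without control 65) to 2.5 (without control 64, adjusted p = 0.0414, edgeR), where it was called. None of 6 tested members was called in the oligodendrocyte progenitor-like nuclei (0.299% of genes were) and none of 2 in the oligodendrocyte-like nuclei (2.97%). Leaving out KO 60, KO 73, control 64 or control 65 moved the 20 genes called in the former to 35, 19, 145 and 51, and the 239 in the latter to 126, 94, 668 and 322. Astrocyte-like nuclei made up 9.3% and 7.01% of the control animals' nuclei and 9.39% and 8.75% of the KO animals'. Oligodendrocyte-like nuclei made up 16.7% and 11.2% in control and 6.46% and 4.54% in KO.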

How the data were processed

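RNA was measured in 32 bulk libraries and 4 nuclei libraries of the 38 samples. The 2 CUT&RUN samples and the counts of transposable elements were not used here. Per the file headers, the authors made the deposited gene counts with featureCounts 1.6.3 (strand setting 2) on GENCODE vM19, and the submitters' processing notes name STAR 2.6.0 and build GRCm38.p6. A second set of gene counts, from multi-mapped reads, is deposited together with the counts of transposable elements. The nuclei files are deposited UMI counts from Cell Ranger 3.0. Columns of 6 libraries that match no sample were left out. The 9 genes and the gene lists were chosen with earlier results of these data known.

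Counts were tested in R 4.3.3 with edgeR 4.0.16 (TMM factors, filterByExpr, quasi-likelihood F test, Benjamini-Hochberg adjustment over all genes tested). A gene was called at an adjusted p below 0.05 and a log2 fold change beyond 0.5. NPC groups were the 6 KO and 2 lacZ libraries, with the number series as a term only where series were compared. The samples labelled as separate are taken as replicates, and where their origin is not given, p-values measure only the spread between libraries. The same-group pairs differed beyond counting noise in all 46 cases (chi-square per gene 7.726 or more), so none was counted as a duplicate. The number series paired the samples: deviations of same-series libraries from their group means correlated in all 6 pairs of guides (r = 0.532 to 0.706 over 16469 genes). CPM values use TMM factors within an experiment, and CPM per kilobase uses exon length and factors over all 32 libraries.

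Nuclei were kept within 3 median absolute deviations of log10 genes detected, clustered in Seurat 5.3.0 (2000 variable genes, 20 principal components, resolution 0.1) and named by fixed markers; no doublet caller was run. UMIs summed per animal and class were tested with edgeR. Alternatives were RLE factors, no filter, the multi-mapped counts, DESeq2 1.42.0, the series as a block or alone, resolution 0.3 and leaving out each library. The test scripts were also run on simulated data, where the NPC KO comparison missed most of the smaller changes put in, so a member not called there may still differ. Permuting KO and lacZ within each number series was added after the data were seen.

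Named were the 9 genes, Trim28, up to 4 called genes of each list or else the 2 with the smallest p, and the genes most like each member. Sox3, Snap25 and Gad1 in NPCs, and calls of a list beyond 4, were named after their values were seen.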

Additional observations from a re-analysis of the deposited data

Results flagged for a closer look

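In the groups of 4 to 10 libraries, the highest or lowest value stood apart from the rest by Dixon's criterion in 4 of 50 combinations of gene and group; chance alone flags about 1 in 20. Hes5 in NPC KO was 33.5 CPM in the g3 library of series A (626 counts), where the other 5 KO libraries held 1.90 to 9.88 CPM. Sox2 in Cas9-GFP KO nuclei was 1.51 CPM in the g4 library (17 counts), with 3.38 to 3.56 CPM in the other 3. Fabp7 in Stop-Cas9-GFP KO nuclei was 0.474 CPM in the g4 library (5 counts) and listed at 0 in the other 3. Hes1 in the flox nuclei labelled control was 0.867 CPM in 1 library (19 counts), with 2.34 to 2.61 CPM in the other 3. The causes were not tested.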

How the results depend on the processing

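With the number series as a replicate block, 136 genes were called in the NPC KO in place of 32 (312 with DESeq2 and the block, 146 with DESeq2 alone), and Ina was the 1 member called in each, at -1.55 with an adjusted p of 0.0154 under the block (edgeR); the block changed no other call of the 9 genes. Ina was lost, leaving 0 members called, with no filter on low counts (adjusted p = 0.0684), in series A alone and in series B alone, where the fits rest on 1 lacZ library. Nes in the NPC KO turned to 0.053 in series A alone. With no filter, 1 member was called for g4 and among the guides (Hes5) and 1 in Cas9-GFP nuclei (Ina). Trim28 in Stop-Cas9-GFP turned to 0.000401 with RLE factors and 5.38e-05 with DESeq2. DESeq2 called 2 members (Ina and Fabp7) for the KO effect in NPCs minus cortex. In the nuclei, the astrocyte-like count became 2 with no filter and 0 with DESeq2, the excitatory count 0 with no filter, and at resolution 0.3 astrocyte-like nuclei were highest for 2 members in place of 3, with Hes1 then highest in an unnamed cluster. All genes called in cortex numbered 216, 546 with no filter; for g3, 3, and 154, 14, 83 and 78 with no filter, multi-mapped counts, DESeq2 and the block. In the same order, 125, 6, 50 and 49 were called for g4 and 105, 3, 32 and 30 for g13, in place of 0. Among all genes, 511, 351 and 67 were called with no filter and 109, 88 and 7 with DESeq2 in astrocyte-like, oligodendrocyte-like and oligodendrocyte progenitor-like nuclei, in place of 215, 239 and 20.

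Leaving out 1 library at a time, members called in the NPC KO ranged from 0 to 1 (all genes 2 to 58), between series from 2 to 4 (2 without either lacZ library; all genes 1655 to 4561), in NPCs minus flox nuclei from 0 to 1, in astrocyte-like nuclei from 0 to 4, in excitatory nuclei from 0 to 3, and in inhibitory and oligodendrocyte progenitor-like nuclei from 0 to 1. Log2 fold changes that crossed 0 were, in the NPC KO, Nes (-0.64 to 0.83), Sox2 (-0.044 to 0.36), Pax6 (-0.40 to 0.34), Hes5 (-1.57 to 0.36) and Dcx (-1.08 to 0.43); between series, Hes1 (-0.050 to 0.22) and Ina (-0.16 to 0.074); in cortex, Nes (-0.023 to 0.33), Hes5 (-0.31 to 0.19) and Olig2 (-0.042 to 0.14); and Trim28 in Stop-Cas9-GFP (-0.10 to 0.068), Dcx in NPCs against flox nuclei (-1.04 to 0.30), Fabp7 in NPCs minus flox nuclei (-0.29 to 0.12) and Hes5 in astrocyte-like nuclei (-1.42 to 0.091). Where an arm kept 1 sample, it was assumed to vary like the rest. The lone lacZ library of either Cas9 experiment could not be left out. The causes were not tested. The few counts of Ina in the KO NPCs (16 to 31) limit its precision.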
